A study of Mus musculus with 12 samples.

Results

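The genes described here encode the proteins of the cytosolic ribosome. They were chosen by name, as the protein-coding genes called Rpl or Rps followed by a number (with an optional a or x), together with the stalk genes Rplp0, Rplp1 and Rplp2 and the gene Rpsa, in the GENCODE M21 annotation of the mouse genome build GRCm38. This gave 76 of 21951 protein-coding genes and of 55450 annotated genes in all. Of the 76, 46 encode proteins of the large subunit and 30 encode proteins of the small subunit.

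H3K4me3, a histone mark found at the promoters of genes that are transcribed or ready to be, was profiled by CUT&Tag, in which an antibody guides a transposase to cut and tag DNA next to the mark. Nuclei came from wild-type C57BL/6J mouse embryos, dissected into the medial, lateral and caudal ganglionic eminences (MGE, LGE and CGE, the birthplaces of forebrain inhibitory neurons) and the cortex (CTX, where excitatory neurons arise). The study's methods give embryonic stage E12.5 for these tissues, while the protocol in the labels also names E14.5, so that the age of each library is not fixed by its label. The protocol also describes a pool that combines nuclei of all 4 regions, and how this applies to libraries labelled with a single region is not given in the sources used here. The 12 libraries held 2 biological replicates of each region, and the authors merged them before calling broad peaks, which left 1 peak list per region, no spread between replicates and no test between regions.

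Ribosomal proteins are made in every growing cell and are needed in near equal amounts, since each ribosome carries about a single copy of each. Their genes are short, are scattered over the genome, and are among the most strongly transcribed in dividing cells. Most of their mRNAs begin with a run of pyrimidines, the terminal oligopyrimidine (TOP) element, through which growth signals set how strongly they are translated. Introns of many of them carry small nucleolar RNAs, which guide the modification of ribosomal RNA.

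The 4 lists held between 17284 and 25339 peaks, with median widths of 563, 1168, 1240 and 701 bp in MGE, LGE, CGE and CTX. The peak lists carry no read numbers. By the study's methods CGE was sequenced most deeply and MGE least, and LGE to a depth close to or below that of CTX, for which a value is misprinted. Peaks of LGE were wider than those of CTX by the medians above, a difference whose relation to depth was not tested. Since peak calls and the −log10 q value can move with depth, members were compared with other genes of the same list, and the part of depth in differences between lists was not tested. The labels were checked against marker genes. Peaks lay at Nkx2-1, Lhx6 and Lhx8, genes of the MGE, in all 3 eminence lists and at 0 of the 3 in CTX. The markers fixed for the eminences as a whole, for LGE and for CGE had peaks in all 4 lists, as did 5 of 6 cortical markers, Neurod6 having none in any list. By presence of a peak, only the MGE genes separated CTX from the eminence lists. No marker told the 3 eminence lists apart, so their labels could not be checked in this way. Of the markers of other cells, 0 of 3 for microglia, 1 of 3 for endothelium and 2 of 3 for red blood cells had a peak, in every list.

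The sequences at the start of these genes show the feature that their name alone does not. In the RefSeq promoter table for GRCm38.p6, which holds 250 bases before and 50 bases after each start, 56 of the 76 genes had an entry. The stretches below run from 90 bases before the start to 20 bases after it, 5′ to 3′ on the strand of the gene, with every run of 8 or more pyrimidines (C or T) in capitals. Rpl7a (chr2:26910717-26910826, + strand), Rpl15 (chr14:18270967-18271076, − strand), Rpl27a (chr7:109519105-109519214, + strand), Rpl28 (chr7:4792875-4792984, + strand) and Rps9 (chr7:3703951-3704060, + strand) are shown because their run lies at the start. Rps28 (chr17:33824543-33824652, − strand) is shown because it had the most significant peak of any member in MGE and CTX and its run lies farther upstream. They were chosen after their values were seen.
Rpl7a: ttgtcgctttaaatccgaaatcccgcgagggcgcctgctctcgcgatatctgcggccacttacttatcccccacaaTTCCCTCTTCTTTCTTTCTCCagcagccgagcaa
Rpl15: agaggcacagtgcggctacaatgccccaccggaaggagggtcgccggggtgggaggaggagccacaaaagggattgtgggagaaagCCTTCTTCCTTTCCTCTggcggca
Rpl27a: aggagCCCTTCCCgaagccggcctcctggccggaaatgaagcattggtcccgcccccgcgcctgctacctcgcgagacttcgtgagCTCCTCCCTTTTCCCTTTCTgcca
Rpl28: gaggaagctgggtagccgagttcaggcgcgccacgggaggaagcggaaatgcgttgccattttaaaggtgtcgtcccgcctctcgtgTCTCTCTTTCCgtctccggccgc
Rps9: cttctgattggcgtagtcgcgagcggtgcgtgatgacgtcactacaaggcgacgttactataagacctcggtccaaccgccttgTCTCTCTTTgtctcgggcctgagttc
Rps28: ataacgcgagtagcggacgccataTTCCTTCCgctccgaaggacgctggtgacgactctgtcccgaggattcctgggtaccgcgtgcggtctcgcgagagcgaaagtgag

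A run of at least 8 pyrimidines on the gene's strand, from 40 bases before to 50 bases after the start, was found in 47 of the 56 promoters, or 83.9%. It was found in 31.4% of all 16522 protein-coding promoters in the table and in 28.0% of other genes marked in all 4 lists. The letters CCGGAA, the core of ETS factor sites, were present on either strand in 28 promoters, 50%, against 19.9% of all promoters. On the opposite strand these letters read TTCCGG and can overlap the end of a pyrimidine run. The YY1 core AAGATGG was present in 14.3% of the members' promoters and 6.42% of all, the GC box GGGCGG in 58.9% and 48.4%, and TATAAA in 8.93% and 12.9%, each on either strand. Against the other genes marked in all 4 lists the order of the last pair of motifs turned, with GGGCGG in 67.7% and TATAAA in 6.38% of their promoters, while CCGGAA was found in 28.0% and AAGATGG in 6.85%. The median ratio of observed to expected CpG dinucleotides was 0.89 in the members, 0.77 in other genes marked in all 4 lists and 0.18 in genes marked in none. These counts describe letters in a window and say nothing of binding. The members without an entry included Rpl3, Rpl7, Rpl8, Rpl17, Rpl21, Rpl23a, Rpl29, Rpl30, Rpl32, Rpl36, Rplp1, Rps14, Rps20, Rps27a and Rps29.

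The first question was how many of these genes carry the mark in each region. A gene was called marked when a peak overlapped by at least 1 bp the 2 kb on either side of any of its annotated transcription start sites (TSSs). By this rule 75 of 76 genes were marked in MGE, where 62.2% of all 21951 protein-coding genes were. In LGE 75 were marked against a background of 62.3%, in CGE 75 against 62.7%, and in CTX all 76 against 61.5%. The exact 95% interval was 92.9% to 100.0% for 75 of 76 and 95.3% to 100.0% for 76 of 76, covering counting error only. Across all 4 lists 75 of the 76 genes were marked, against 59.4% of all protein-coding genes. The 46 genes of the large subunit were all marked in every list.

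Rps25, which encodes a small-subunit protein that some viral mRNAs need for translation, was the exception. It lies at chr9:44407139-44410427 on the + strand and shares its start region with Trappc4 on the opposite strand. No peak touched its windows in MGE, LGE or CGE. In CTX it had a single peak of 255 bp (chr9:44408623-44408877), inside the gene, with a fold enrichment of 4.22 and a −log10 q of 3.09, the lowest of any member. Peaks carry running numbers in the lists, and the numbers skip 1 value in MGE and CTX and 2 in LGE and CGE, in the interval between peaks that spans this gene (chr9:44288446-44417507 in MGE). A peak numbered there is not among those analysed here, so the lack of a peak at Rps25 cannot be read as absence of the mark. It was the only member that touched such an interval, and without the genes at these intervals 100% of the remaining members were marked in each list.

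**Figure D1:**
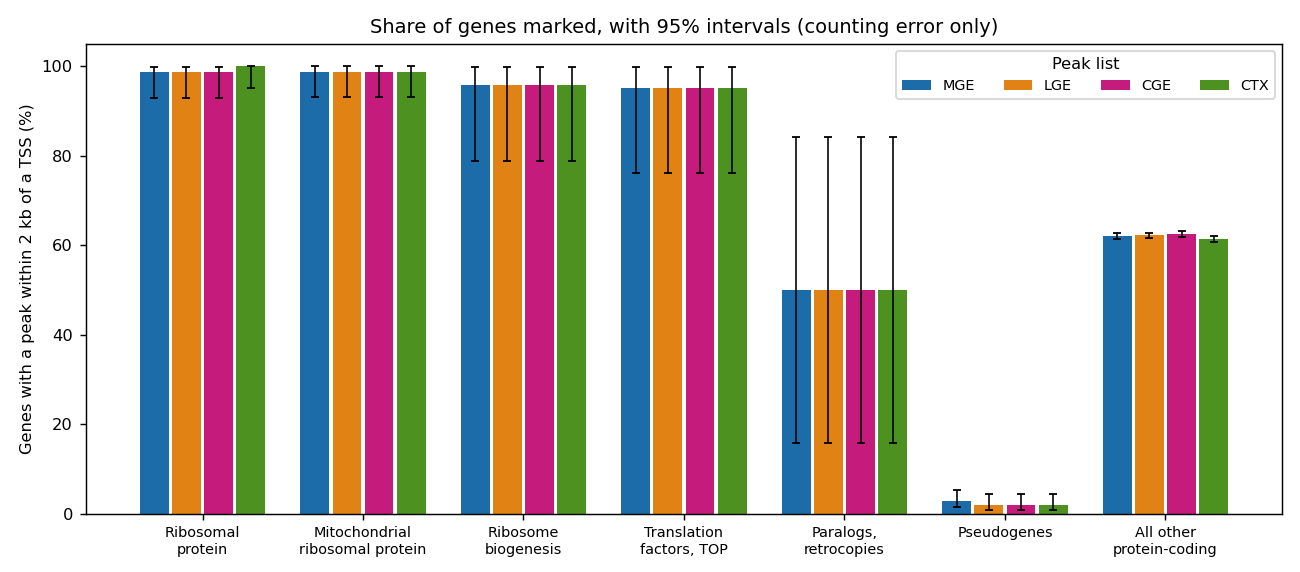
Percent of genes with an H3K4me3 peak within 2 kb of a TSS, for 7 gene lists (x axis) in the 4 peak lists (colors), with 95% intervals for counting error only. Ribosomal protein genes stand at 98.7% to 100%, their pseudogenes at 2.05% to 2.74%.

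Other genes of the protein synthesis machinery were nearly all marked as well. Fau and Rack1, whose products are also ribosomal proteins, were marked in every list. Of the 78 mitochondrial ribosomal protein genes, which serve the separate ribosome inside mitochondria, 77 were marked in every list, Mrpl43 being the exception. Of 24 ribosome biogenesis genes 23 were marked in every list, all but Tsr1, and of 21 translation factor and other TOP genes 20 were, all but Eef2. Eef2 also touched an interval of skipped peak numbers, in LGE and CGE, whereas Mrpl43 and Tsr1 did not.

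The extent of the mark at ribosomal protein genes was close to that of other marked genes. The widest peak of a member had a median width of 953, 1372, 1422 and 1069.5 bp in MGE, LGE, CGE and CTX. The other marked protein-coding genes had medians of 972, 1332, 1418 and 1016 bp in the same order, which gave ratios of 0.98, 1.03, 1.00 and 1.05. Covered bases, the bases under peaks within 2 kb of the TSSs of a gene, had medians of 1027, 1388, 1450 and 1087 in the members and 1013, 1358, 1445 and 1052 in the others, with ratios of 1.01, 1.02, 1.00 and 1.03. Large- and small-subunit genes had values close to each other, with median covered bases of 980.5, 1389.5, 1419.5 and 1087 for the large and 1054, 1364, 1479 and 1103.5 for the small subunit in MGE, LGE, CGE and CTX.

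The members' values were less spread than those of the rest. The interquartile range of covered bases was 380, 419, 408 and 369.75 in MGE, LGE, CGE and CTX for the members, against 654, 763.5, 779 and 661 for the others, a ratio of 0.58, 0.55, 0.52 and 0.56. The coefficient of variation across members was between 29.9% and 31.8% and that across other genes between 49.7% and 53.8%. By peak width, 63, 57 and 56 of 75 members of the MGE, LGE and CGE lists and 60 of 76 of the CTX list lay between the 25th and 75th percentile of their list. By construction about 25% of all marked genes lie below the 25th percentile and about 25% above the 75th. With windows of 5 kb the ratio of interquartile ranges rose to 0.91 in LGE and 0.98 in CGE, so in these lists the spread was then close to that of other genes. As a share of the windows searched, covered bases had a median of 19.2%, 27.0%, 28.6% and 20.8% in MGE, LGE, CGE and CTX for the members and 12.03%, 17.0%, 18.2% and 12.54% for the others, a ratio of 1.57 to 1.66. The windows searched were smaller in the members, with a median of 5306 bp against 8086 bp in MGE.

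**Figure D2:**
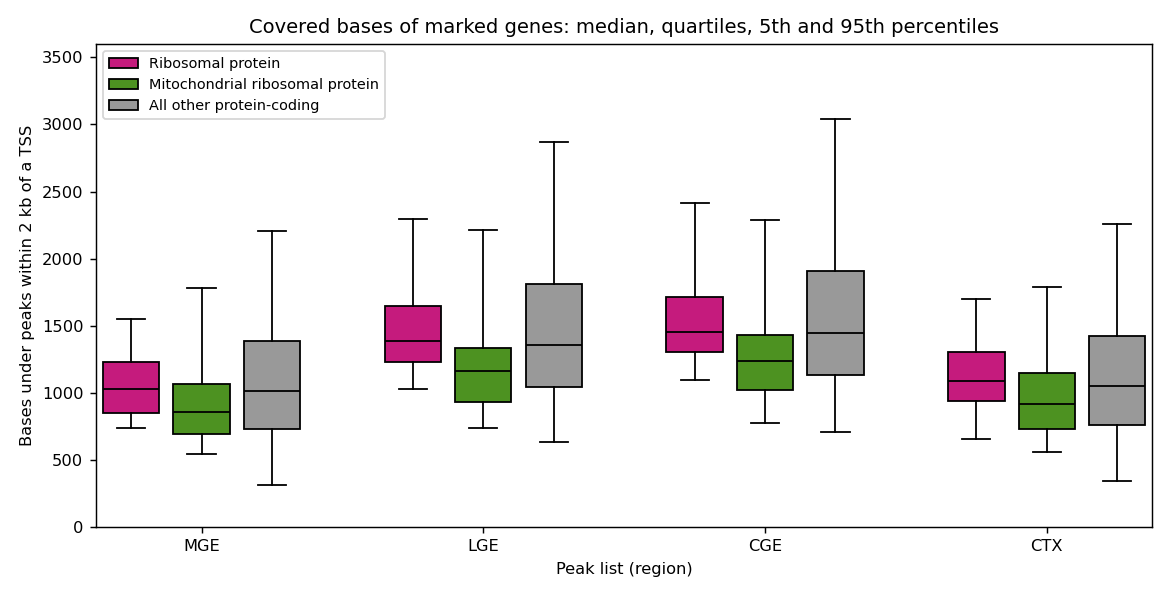
Bases under peaks within 2 kb of a TSS (y axis) for marked ribosomal protein genes, mitochondrial ribosomal protein genes and all other marked protein-coding genes in each peak list (x axis), with the line at the median, the box at the quartiles and the whiskers at the 5th and 95th percentiles. The members' medians lie beside those of the other genes while their boxes are shorter, and the mitochondrial genes lie lower, with medians of 856 in MGE and 1233 in CGE.

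The mitochondrial ribosomal protein genes, a list of almost the same size, had narrower peaks than the cytosolic ones in every list. Their median width was 829, 1152, 1226 and 904 bp in MGE, LGE, CGE and CTX. Their interquartile range of covered bases was 368, 408, 408 and 416, close to that of the cytosolic genes, so a narrow spread was also found in this list. The translation factor and TOP genes had wider peaks, with medians of 1120.5, 1609, 1610 and 1248 bp. The ribosome biogenesis genes had medians of 908, 1385, 1383 and 1089 bp.

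While their width was ordinary, the members' peaks had high scores. The −log10 q value, the authors' measure of how far a peak rises above background given its reads, had a median of 36.3, 111, 243 and 42.0 in MGE, LGE, CGE and CTX for the members. The other marked genes had medians of 19.2, 65.3, 139 and 22.8. In each list, 25% of marked genes lie above the 75th percentile by construction, and 42 of 75 members did so in each eminence list and 39 of 76 in CTX. Above the 50th percentile lay 70, 70, 68 and 66 members. The fold enrichment, a ratio to background, differed less, with medians of 7.86, 6.66, 7.28 and 7.40 in the members and 6.39, 6.24, 6.63 and 6.55 in the others. Such scores were also found in the mitochondrial ribosomal protein genes, whose median −log10 q was 32.8, 113, 211 and 44.8 and whose median fold was 8.56, 8.03, 8.44 and 9.07, above that of the cytosolic genes in each list. The translation factor and TOP genes had a median −log10 q of 35.7, 111, 242 and 36.6, and the ribosome biogenesis genes 35.2, 82.2, 194 and 34.8. Within a list, wider peaks of members had lower fold values, with a Spearman's rho over 75 or 76 genes of −0.51, −0.57, −0.58 and −0.46 in MGE, LGE, CGE and CTX, a description of genes that share a library and its depth. The other marked genes had −0.21, −0.50, −0.46 and −0.24.

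**Figure D3:**
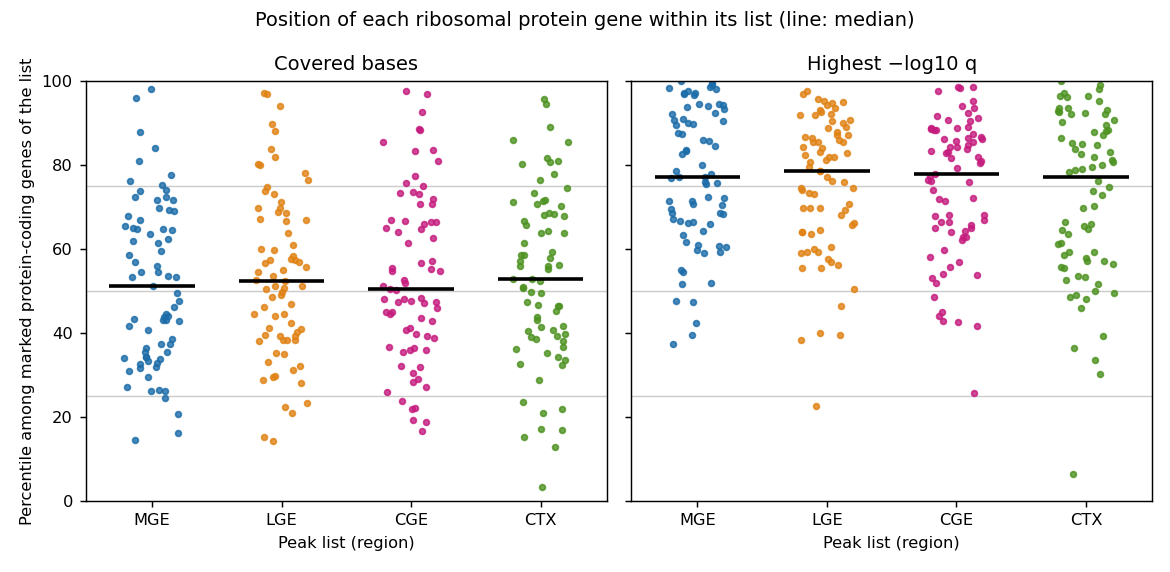
Percentile of each ribosomal protein gene among the marked protein-coding genes of its list (y axis), by covered bases (left) and by highest −log10 q (right), with 1 point per gene, the 4 peak lists on the x axis and a line at the median. Median percentiles lie between 50.5 and 52.8 for covered bases and between 77.1 and 78.5 for −log10 q.

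Among the members the highest −log10 q in MGE and CTX was that of Rps28, a small-subunit protein near the mRNA exit site, at chr17:33819027-33824562 on the − strand with Ndufa7 starting on the opposite strand. Its −log10 q was 141, 157, 310 and 156 in MGE, LGE, CGE and CTX. It was also the member with the fewest covered bases in MGE, with 584, 1178, 1279 and 584 in MGE, LGE, CGE and CTX. In MGE and CTX the peak had the same edges, chr17:33824243-33824826, and a fold enrichment of 14.1 in each.

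The members with the most covered bases had a neighbor's TSS in one of their peaks. Rps14, a small-subunit protein whose loss underlies the anemia of the human 5q deletion syndrome, had 2768, 3270, 3486 and 2332 covered bases in MGE, LGE, CGE and CTX. Counted around its principal TSS alone, the main start in the annotation, these were 1226, 1467, 1546 and 1286, and a further peak at a distant annotated start of Rps14 held a TSS of Ndst1 in MGE, LGE and CGE, while 2 shorter peaks lay there in CTX. Rpl3, a protein close to the peptidyl transferase center, had 1741, 3315, 3654 and 1837 in MGE, LGE, CGE and CTX, with 845, 1822, 2000 and 1197 around its principal TSS. The second peak of Rpl3 held a TSS of Syngr1 in every list. Rpl7, a large-subunit protein, had a single peak that also held a TSS of Rdh10, with 2337, 2735, 2736 and 2215 covered bases in MGE, LGE, CGE and CTX. In all, the peaks of 19 members in each eminence list and of 18 in CTX held a TSS of another protein-coding gene, so the mark there cannot be given to the ribosomal protein gene alone.

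At the other end were genes with a single, short peak. Rpl23a, which lies at the exit of the nascent chain, had 679, 996, 1055 and 922 covered bases in MGE, LGE, CGE and CTX. Rpl6, a large-subunit protein, had 743, 892, 1046 and 745. These levels are below the members' lower quartile in MGE, but the −log10 q of both genes lay above the 50th percentile of every list.

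The values of members with well-known roles are given next. The stalk proteins, which recruit translation factors to the ribosome, had covered bases of 877, 1016, 1016 and 722 in MGE, LGE, CGE and CTX for Rplp0. Rplp1 had 913, 1225, 1278 and 808 in that order, and Rplp2 had 854, 1027, 1093 and 874. All 3 stalk genes were below the members' median in every list, and Rplp0 had the fewest covered bases of any member in CGE.

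Rpl5 and Rpl11 bind the 5S ribosomal RNA, and outside the ribosome they restrain the p53 inhibitor Mdm2. Rpl5 had 953, 1104, 1115 and 1023 covered bases in MGE, LGE, CGE and CTX, and Rpl11 had 1281, 1309, 1372 and 1346. Rps19, the gene most often mutated in Diamond-Blackfan anemia, had 1611, 1566, 1861 and 1553 and was above the members' median in every list. In MGE, CGE and CTX this included a second peak that held none of its TSSs. Around its principal TSS alone Rps19 had 1242, 1566, 1602 and 1288. Rps6, the target of S6 kinase, had 1159, 1801, 1799 and 1147, and Rps3, which also acts in DNA repair, had 1163, 1338, 1469 and 1198. Rpsa, also known as the laminin receptor, was lower in MGE than in the other lists, with 758, 1364, 1406 and 1359 in MGE, LGE, CGE and CTX. Rps27a, made as a fusion with ubiquitin, had 1053, 1356, 1450 and 1012. Rpl22, of which the paralog Rpl22l1 is a known partner in regulation, had 821, 1126, 1162 and 853.

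Of the 4 X-linked members, Rpl39, at the exit tunnel, had the most covered bases in MGE, LGE and CGE. Its values were 1335, 2007, 2169 and 1333 in MGE, LGE, CGE and CTX. Rpl10, a protein that joins late in subunit assembly, had 1258, 1763, 1873 and 1353, the most of the 4 in CTX. Rpl36a had 854, 1216, 1089 and 940. Rpl10 had the lowest −log10 q percentile of any member in LGE and CGE, at 22.6 and 25.7.

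**Figure D4:**
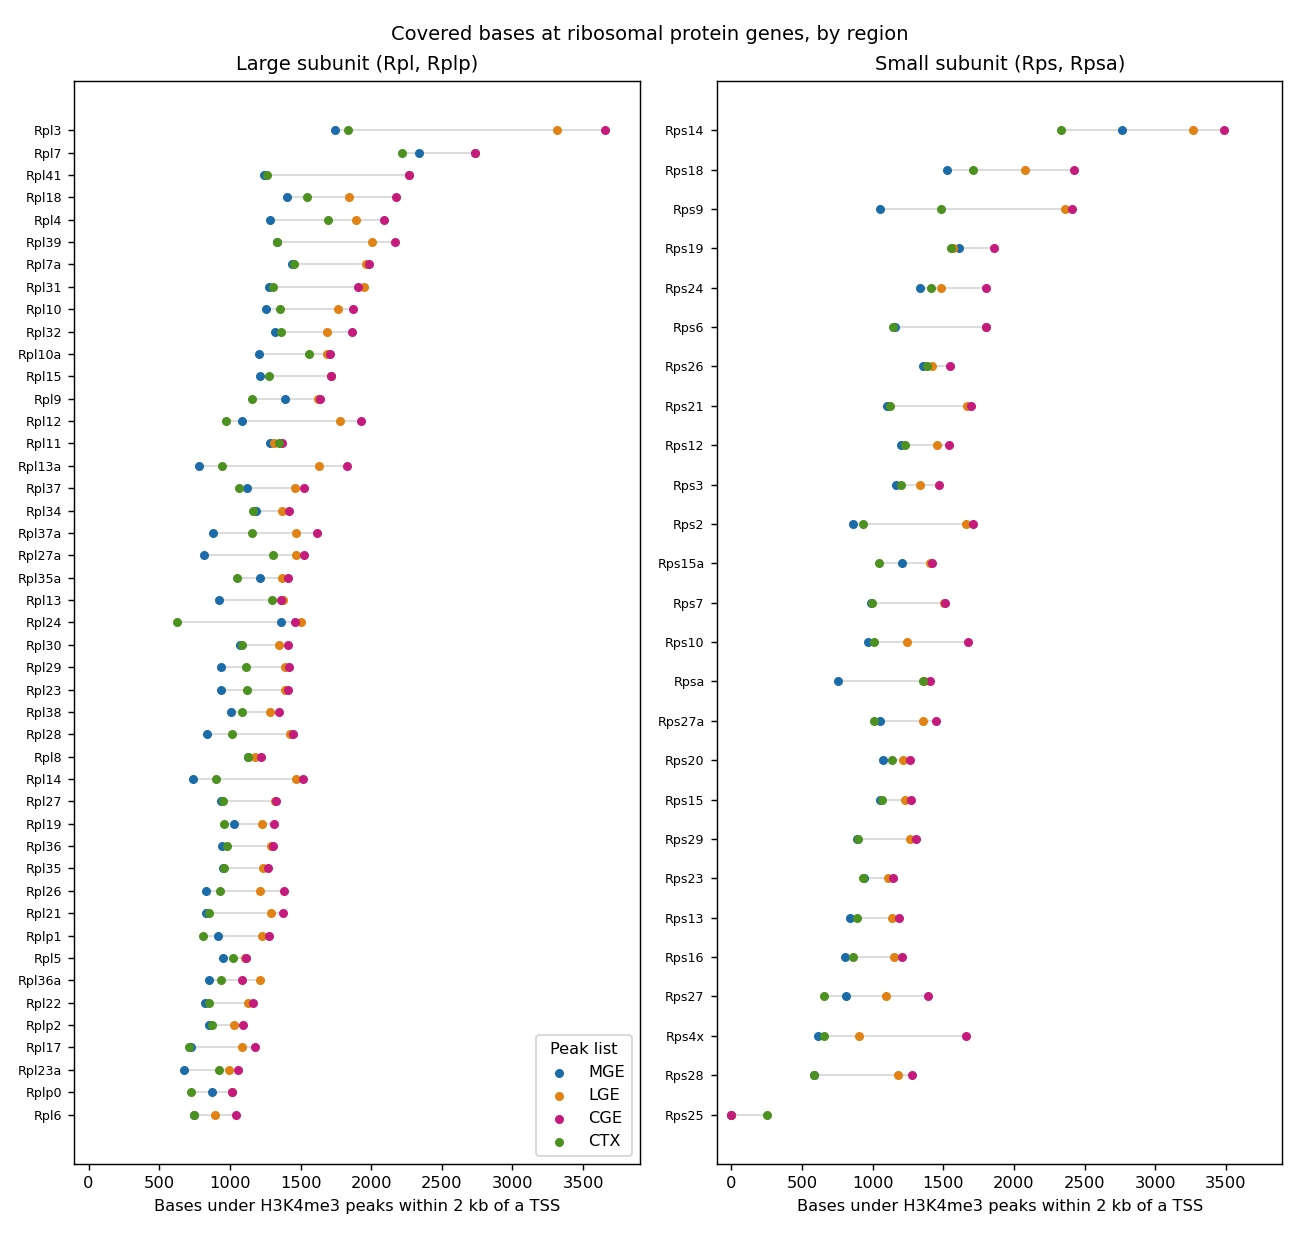
Bases under peaks within 2 kb of a TSS (x axis) for each ribosomal protein gene (y axis), large subunit on the left and small subunit on the right, with 1 point per peak list and a grey line from the lowest to the highest, for the genes reported here. Most CGE points lie to the right of the others, and Rpl3, Rpl7 and Rps14 reach the highest values while Rps25 has bases in CTX alone.

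Across the 4 lists the order of covered bases was the same for most members. The value was highest in CGE for 67 of the 75 genes marked in all 4 lists, in LGE for 5 and in CTX for 1, with LGE and CGE equal for 2, and lowest in MGE for 53 and in CTX for 21, with both equal for 1. For the 12959 other genes marked in all 4 lists it was highest in CGE for 76.7% and lowest in MGE for 57.1%, against 89.3% and 70.7% of members. The ratio of the highest to the lowest list had a median of 1.49 in the members and 1.49 in the others, with an upper quartile of 1.66 and 1.82 and a value of 2.03 and 2.47 at the 90th percentile. CGE was also the deepest and MGE the shallowest list.

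The largest ratio among members was that of Rps4x, the X-linked copy of a small-subunit gene, at chrX:102184941-102189394 on the − strand. It had 612, 904, 1659 and 655 covered bases in MGE, LGE, CGE and CTX, a ratio of 2.71, and CGE alone was high. Rpl24, a large-subunit protein at the subunit interface, at chr16:55966275-55971435 on the + strand, departed from this order, with 1359, 1504, 1461 and 625 in MGE, LGE, CGE and CTX, a ratio of 2.41. Its low value was in CTX, where its fold enrichment was 11.2 against 8.37 in MGE. Rpl13a, which silences translation of inflammatory mRNAs, at chr7:45125558-45128761 on the − strand, had 781, 1628, 1829 and 948, a ratio of 2.34, and part of its window was covered by a second peak.

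Other members hardly moved between lists. Rpl11, at chr4:136028265-136053428 on the − strand, had a ratio of 1.07. In CTX its 1346 covered bases included a second peak of 139 bp that held none of its TSSs. Around its principal TSS alone it had 1207 there. Rpl8, a large-subunit protein at chr15:76904078-76906314 on the + strand, had 1131, 1175, 1221 and 1126 in MGE, LGE, CGE and CTX, a ratio of 1.08. Both had peaks that reached about 1 kb into the gene in every list.

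The ranking of members was kept in part between lists. Spearman's rho of covered bases over the 75 genes was 0.93 between LGE and CGE and 0.69 between MGE and CTX, and it lay between 0.62 and 0.72 for the remaining pairs. For −log10 q it was 0.94 between LGE and CGE and 0.91 between MGE and CTX, and between 0.37 and 0.51 for the other pairs. By covered bases CTX ranked the members about as closely to LGE, at 0.72, as to MGE. Over the 12959 other genes rho of covered bases lay between 0.79 and 0.95. All these values describe genes that share libraries.

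Around the start of the gene the mark lay mostly downstream. The principal TSS was inside a peak for 73, 73, 75 and 73 members in MGE, LGE, CGE and CTX, where 82.9%, 86.5%, 87.8% and 83.6% of all marked genes had it inside. The exceptions among marked members were Rpl35 and Rps10 in MGE, LGE and CTX, and Rps25 in CTX. From the principal TSS the peak reached a median of 257, 321, 346 and 253 bp upstream in MGE, LGE, CGE and CTX. Downstream it reached 664, 1057, 1077 and 719 bp. Other genes had medians of 288, 392, 427 and 301 bp upstream and 635, 869, 915 and 661 bp downstream. The peak was longer downstream in 60 of 73, 67 of 73, 69 of 75 and 63 of 73 members, or 82.2%, 91.8%, 92.0% and 86.3%, and in 77.9%, 81.1%, 81.5% and 78.0% of other genes. The median share of the peak downstream was 73.4%, 77.5%, 75.7% and 75.0% in the members and 69.2%, 69.9%, 69.3% and 69.3% in the others.

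**Figure D5:**
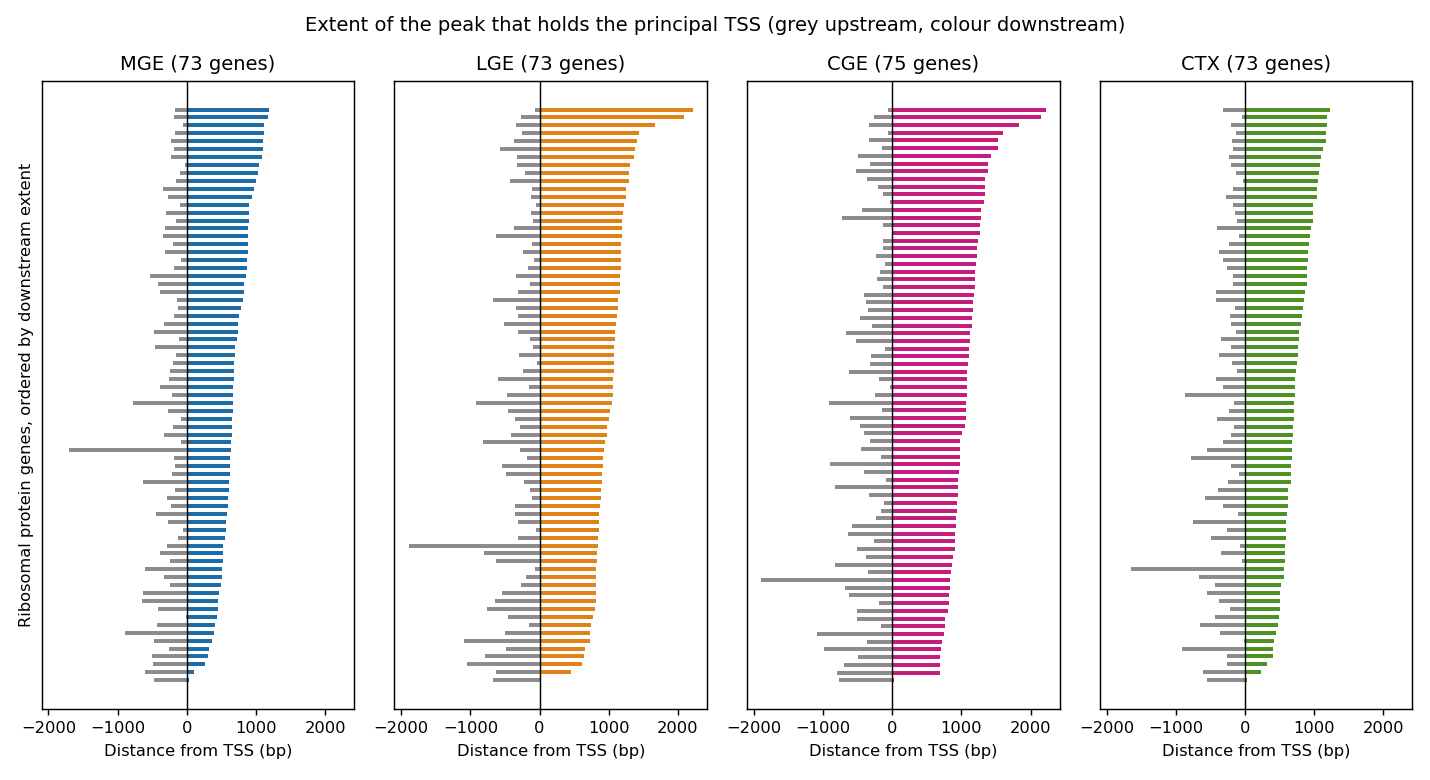
Extent of the peak that holds the principal TSS of each ribosomal protein gene, as distance in bp from the TSS (x axis) with upstream in grey and downstream in color, in 1 panel per peak list with genes ordered by downstream extent. The colored side is longer for 60, 67, 69 and 63 genes in MGE, LGE, CGE and CTX.

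Because the genes are short, the same peaks covered far more of the gene body. The median length of the 75 members marked in all 4 lists was 3243 bp, against 26424 bp for the other genes. Peaks covered a median of 23.1%, 33.2%, 33.7% and 25.3% of the members' bodies in MGE, LGE, CGE and CTX, against 2.82%, 3.78%, 4.03% and 2.85% in the others. Across members, peak width had almost no relation to gene length, with a Spearman's rho between −0.09 and −0.02 over 75 or 76 genes.

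The surroundings of the members were also counted. Within 1 kb upstream, 11 members, or 14.47%, had a protein-coding gene starting on the opposite strand, against 9.09% of other protein-coding genes. Of the 11 partners 10 were marked in all 4 lists, against 59.4% of all protein-coding genes. Since a partner starts within 1 kb of a member, 1 peak can mark both, so this count is not separate from the members' own. Among members with the principal TSS inside a peak, the 10 with a partner, Rps25 being left out, had peaks that reached a median of 484, 574, 609.5 and 340.5 bp upstream in MGE, LGE, CGE and CTX. The 63, 63, 65 and 63 without a partner had 229, 308, 327 and 237 bp. Small nucleolar RNA genes lay inside 29 of the 76 members, or 38.2%, with 56 of the 1507 annotated ones in all. Other protein-coding genes were not counted in this way, so there is no background share. The members with and without small nucleolar RNA genes had median widths of 924, 1373, 1410 and 1197 bp and of 999, 1369.5, 1434 and 1013 bp, respectively, in MGE, LGE, CGE and CTX, so the order differed between lists. More than 1 peak was found at 8, 7, 8 and 11 members in MGE, LGE, CGE and CTX, where 16.3%, 9.31%, 9.81% and 14.3% of all marked genes had more than 1.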

How the data were processed

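The members and comparison lists were chosen with earlier results of these data known. The authors aligned CUT&Tag reads to GRCm38 with Bowtie2, dropped reads in blacklisted regions, removed duplicates with Picard, merged the replicates and called broad peaks with MACS, and the submitters' processing notes also name SAMtools and deepTools. The deposited lists hold, for each peak, a position, a fold enrichment (a ratio to background), a −log10 p-value and a −log10 q-value, and the positions, the fold and the −log10 q were used. Peaks were joined to TSSs of GENCODE M21 in Python 3.11.15 with pandas 2.3.3, numpy 2.4.6 and scipy 1.17.1. A gene was marked with at least 1 bp of a peak within 2 kb of any TSS. Fold and −log10 q of a gene are the highest among its peaks. Shares have exact (Clopper-Pearson) or, for all other protein-coding genes and the pseudogenes, Wilson 95% intervals. No test was made, since each region has 1 list and genes are not replicates. The join was tested on simulated data and matched in 200 of 200 runs. Alternatives covered the windows (1 and 5 kb), the TSSs, a −log10 q of at least 2, lists cut to 17284 peaks, a minimum width of 243 bp, joining of peaks less than 1 kb apart, at least 50% of a peak in the window, autosomes, summed widths and shared peaks. Genes were named by rule: members without a peak, the 3 with the most and the 3 with the fewest covered bases in each list, the 3 largest and 3 smallest ratios over lists, members with fixed roles and X-linked members, 26 in all, some of which are not reported here. Other members named were chosen after their values were seen. Promoters came from the RefSeq table for GRCm38.p6.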

Additional observations from a re-analysis of the deposited data

How the results depend on the processing

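Of 211 values recomputed under the alternatives, 198 stayed within the 95% interval of the reported value. The intervals of the ratios rest on the genes of 1 list, which are not replicates. They were wide, at 0.26 to 0.85 for the ratio of interquartile ranges in LGE. A value inside its interval can thus still have moved, as the same ratio in MGE did, from 0.58 to 0.72 with windows of 5 kb. With windows of 5 kb the ratio of median covered bases was 1.12 in MGE, 1.09 in CGE and 1.14 in CTX, and the ratio of interquartile ranges was 0.91 in LGE and 0.98 in CGE, for which the cause was not tested. Taken as a share of the windows, the ratio of median covered bases was 1.60, 1.59, 1.57 and 1.66 in MGE, LGE, CGE and CTX, where the windows searched had a median of 5306 bp in the members and 8086 bp in the others in MGE. Without genes at skipped peak numbers, an alternative chosen after seeing the data, the share of members marked was 100% in MGE, LGE and CGE and 100% for all 4 lists together, since Rps25 is left out. The ratio of median peak widths lay between 0.96 and 1.07 under every alternative run, and Rps25 stayed the only unmarked member. No paired analysis was possible because replicates were merged before peaks were called, and for the same reason no replicate could be left out. Without reads or replicates, the precision of a width, a fold or a −log10 q is unknown, and intervals cover the counting of genes only.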

Other observations

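The copies of ribosomal protein genes divided by kind. Of 8 protein-coding paralogs and retrocopies, 4 were marked in every list and 4 in none. The marked ones were Rpl7l1, Rpl22l1, Rpl36al and Rps27l. Rps27l, a p53 target, had 998, 1262, 1308 and 1130 covered bases in MGE, LGE, CGE and CTX, and Rpl22l1 had 693, 944, 1094 and 701. The peak of Rpl36al lay where Mgat2 starts on the opposite strand. Those without a peak were Rpl3l, known from muscle, Rpl10l and Rpl39l, known from the testis, and Rps27rt, a retrocopy.

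The start regions of these pairs are printed because the marked and unmarked copies can be compared by eye. They come from the RefSeq promoter table for GRCm38.p6 and run from 90 bases before to 20 bases after the start, with CpG dinucleotides in capitals. Rps27 (chr3:90213629-90213738, − strand) and Rps27l (chr9:66945996-66946105, + strand) were marked, Rps27rt (chr9:114982720-114982829, − strand) was not, Rpl39 (chrX:37085203-37085312, − strand) was, and Rpl39l (chr16:10170138-10170247, + strand) was not.
Rps27: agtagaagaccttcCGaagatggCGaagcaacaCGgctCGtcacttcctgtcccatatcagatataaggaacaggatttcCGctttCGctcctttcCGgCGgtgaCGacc
Rps27l: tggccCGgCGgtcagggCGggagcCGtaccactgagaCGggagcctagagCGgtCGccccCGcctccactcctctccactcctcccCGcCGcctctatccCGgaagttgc
Rps27rt: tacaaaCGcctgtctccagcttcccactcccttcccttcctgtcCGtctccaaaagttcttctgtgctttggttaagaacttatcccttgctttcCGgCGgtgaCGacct
Rpl39: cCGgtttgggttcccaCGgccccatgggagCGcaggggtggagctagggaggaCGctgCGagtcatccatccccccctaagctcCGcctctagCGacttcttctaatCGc
Rpl39l: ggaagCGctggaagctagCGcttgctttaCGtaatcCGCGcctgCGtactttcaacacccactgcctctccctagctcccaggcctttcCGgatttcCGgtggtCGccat

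Over the 300 bases of the table, the ratio of observed to expected CpG was 1.18 for Rps27, 0.77 for Rps27l and 0.63 for Rps27rt. It was 0.68 for Rpl39, which was marked, and 0.84 for Rpl39l, which was not. The other marked copies, Rpl7l1, Rpl22l1 and Rpl36al, had 0.68, 1.16 and 1.14. The other unmarked copies, Rpl3l and Rpl10l, had 0.09 and 0.64. Whether CpG content bears on which copies are marked was not tested.

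Of 292 ribosomal protein pseudogenes, 8 had a peak within 2 kb in MGE and 6 in each of LGE, CGE and CTX, or 2.74% and 2.05%. In all, 10 had a peak in at least 1 list, and at 5 of them the peak held the TSS of a protein-coding gene, Akr1e1, Fnbp4, Ctsz, Pdia4 or Taf1c. The other 5 included Rpl31-ps20, Rpl31-ps7, Rpl5-ps2 and Rps12-ps26. Among all 5 the highest −log10 q was 36.8, at Rpl31-ps7 in CGE, and Rpl5-ps2 had 1.54 in MGE and 1.86 in CTX. Reads from near-identical copies can be placed at the wrong copy or dropped, and how the authors treated them is not given in the sources used here.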
